A study of Mus musculus with 19 samples.

Results

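The genes described here are Odc1, Oaz1, Oaz2, Amd1, Srm, Sms, Sat1 and Smox, which encode the enzymes that make and break down polyamines and the proteins that hold this synthesis in check. The members were chosen from earlier results of these same arrays, by gene name, and every probe that the scanner files assign to 1 of the names was taken. This gave 18 probes for 8 genes, of 41174 probes and 27792 gene names on the array. Because the levels on these arrays were known when the genes were put together, their values, and the counts of them that passed a threshold, are given as a description and support nothing. Gene expression was measured on 19 arrays of 1 colour, 1 per sample, each spot holding a 60-base probe.

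The cell samples were C2C12 mouse myoblasts, an immortalised line that can fuse into myotubes. The 6 samples labelled HDAC4&5 stably carried plasmids for wild-type human HDAC4 and HDAC5, pIRES neo3 HDAC4 and pIRES hyg3 HDAC5, and the 6 samples labelled WT carried the empty plasmids. Both groups were selected with hygromycin B and geneticin at 500 µg/ml and harvested 48 h after seeding at about 80% confluency. HDAC4 and HDAC5 are class IIa histone deacetylases, which repress the MEF2 transcription factors of muscle. The muscle samples were soleus of male C57BL6J mice aged 12 weeks and fasted for 5 h, with 3 arrays of heterozygous littermate controls (Con) and 4 of db/db mice (db), a strain with a mutated leptin receptor that grows obese. The labels do not say which arrays came from separate cultures or wells, so the p-values below measure the spread between these arrays, which may be partly technical. The published description gives fewer replicates in a cell group than the 6 arrays analysed here, so some arrays may share a culture, and the SEs and p-values for the cells would then be too small.

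Polyamines are small positively charged molecules that bind nucleic acids and are needed for translation and cell growth. Ornithine decarboxylase (Odc1) turns ornithine into putrescine. Spermidine synthase (Srm) and spermine synthase (Sms) then add aminopropyl groups, which come from decarboxylated S-adenosylmethionine made by the Amd1 enzyme. Spermidine/spermine acetyltransferase (Sat1) marks both products for export or oxidation, and spermine oxidase (Smox) turns spermine back into spermidine with release of hydrogen peroxide. The antizymes Oaz1 and Oaz2 are made by a ribosomal frameshift when polyamines are plentiful, bind Odc1 protein and send it to the proteasome. Much of this control acts on protein, which the arrays do not measure.

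The probes shown stand for the entry enzyme, both antizymes and the acetyltransferase, with 1 probe for each gene. They are printed in lower case, 5′ to 3′ on the strand of the transcript, as the scanner files give them, and their places are on mm9. The Oaz2 probe spans 907 bases of the genome and therefore crosses an intron, and the file places 31 bases of the Sat1 probe.
Odc1 A_52_P436238, chr12:17554799-17554858, plus strand: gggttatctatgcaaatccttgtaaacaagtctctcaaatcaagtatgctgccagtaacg
Oaz1 A_52_P461292, chr10:80291216-80291275, plus strand: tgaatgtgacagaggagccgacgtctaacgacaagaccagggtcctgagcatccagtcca
Oaz2 A_52_P90289, chr9:65535779-65536685, plus strand: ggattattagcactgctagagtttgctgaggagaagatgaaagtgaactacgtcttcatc
Sat1 A_52_P640282, chrX:151647564-151647594, minus strand: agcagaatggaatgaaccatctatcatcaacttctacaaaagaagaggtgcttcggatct

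The files of the cell arrays name the 4 Oaz2 probes Oaz2-ps, an older symbol of the same RefSeq gene, and those of the muscle arrays name them Oaz2. Of these 4 probes, A_52_P157408 and A_52_P654130 overlap by 17 bases, so they are not separate readings. Amd1 has a near-identical copy, Amd2, and their transcripts may not be fully told apart by a probe. The Amd2 probe is given beside Amd1 for that reason.

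Each value is the log2 of the processed signal minus the 75th percentile of its array, so that 0 is the level of a probe at that percentile, and values of different probes are not compared. The 75th percentile of the signal lay between 494 and 1691 on the cell arrays and between 153 and 686 on the muscle arrays. Each slide of C2C12 arrays held both groups, and the muscle arrays lay on 2 slides with both groups on each. The mouse Hdac4 probe differed by -0.05 ± 0.05 (SE) between HDAC4&5 and WT cells, while the Hdac5 probe read 2.77 to 4.40 in HDAC4&5 cells and 1.88 to 2.73 in WT cells. Whether these mouse probes detect the human transcripts was not tested. Of 10 muscle markers, 8 were well above background on every WT array and 4 on every HDAC4&5 array, with Myod1 not well above background on any of the 6 HDAC4&5 arrays. The summed level of these markers was 108 to 226 in WT and 1.66 to 1.94 in HDAC4&5 cells, in units of the 75th percentile. Myh7 went the other way, with a mean log2 level of -3.60 in WT and -2.16 in HDAC4&5 cells, well above background on every array. Of 6 macrophage markers, whose summed level was 1.96 to 2.48 in WT and 5.7 to 7.09 in HDAC4&5 cells, Cd14 made up most of the sum (mean log2 level 1.00 and 2.63), Cd68 stood at -2.41 and -2.83, and Lyz2 was well above background on no WT array and on all 6 HDAC4&5 arrays. Of 8 adipocyte markers, with sums of 8.97 to 10 and 2.53 to 3.18, Lpl stood at 2.44 and -0.73 and Fabp4 the other way at -5.61 and -3.42, and Adipoq was well above background on no cell array. Of 6 fibroblast markers, with sums of 76.1 to 141 and 86 to 99, Col1a1 stood at 1.05 and 4.39 and Col1a2 the other way at 6.19 and 3.76. The part of these shifts in the member differences of the cells was not tested.

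In C2C12 myoblasts with HDAC4 and 5, the transcripts of Oaz2, Smox, Odc1 and Srm were higher than in WT cells, and those of Sms and Sat1 were lower. Over each gene's brightest probe, limma called 4 of 8 genes higher (Oaz2, Amd1, Srm and Smox) and 2 lower (Sms and Sat1), where 36.5% of all probes were called higher and 31.9% lower at an adjusted p of 0.05. The rule used this contrast, and nothing is read from these counts. All 18 probes passed the filter on dim probes, 1 of Sms only through WT and 1 of Smox only through HDAC4&5. Of the 18, 8 lay higher and 5 lower with no overlap of the groups, beside 27.4% and 25.0% of all probes, and the Sms and the Smox probe that passed through 1 group are among them. The median difference over the 18 probes was 0.35, against 0.05 over all 21433 probes fitted. The plot of the cell arrays shows every value.

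**Figure D1:**
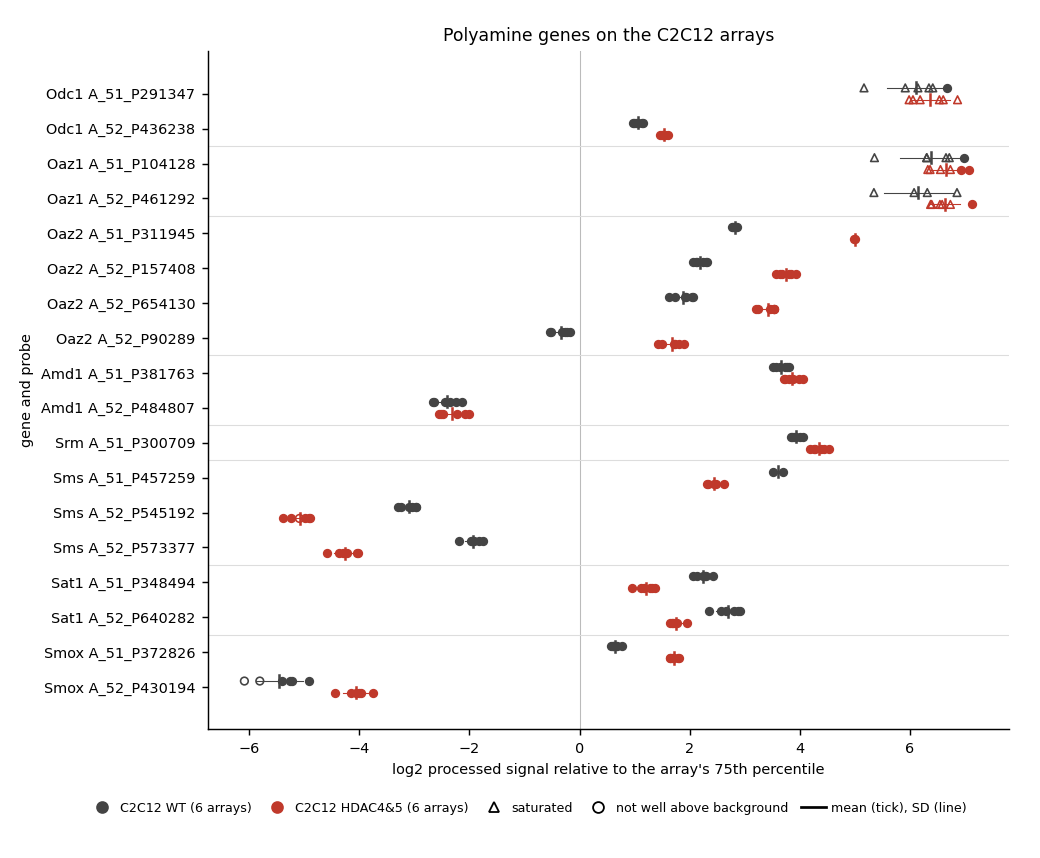
Every array's value for the 18 probes of the polyamine genes in C2C12 cells, as log2 processed signal relative to the array's 75th percentile; grey marks WT and red marks HDAC4&5 (6 arrays each), triangles are saturated spots, open circles are not well above background, ticks are means, thin lines are 1 SD, and spots marked as outliers are left out. The groups lie apart for the 4 Oaz2 probes, Srm, the 3 Sms probes, the 2 Sat1 probes, the 2 Smox probes and 1 Odc1 probe, and the bright Odc1 and Oaz1 probes are mostly saturated.

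Odc1, the entry step of the pathway, had 1 probe that could be read in the cells. On A_52_P436238 the 6 WT arrays read 1.13, 0.97, 1.15, 1.07, 1.03 and 0.99. The 6 HDAC4&5 arrays read 1.46, 1.61, 1.56, 1.52, 1.53 and 1.49. Every HDAC4&5 array lay above every WT array, with a difference of 0.47 ± 0.05 (SE, n = 6 and 6), or 1.39-fold. Within the 3 slides the difference was 0.48, 0.43 and 0.50. Its size was 0.38 with normexp background correction and 0.29 in the deposited matrix, where it was not called. The brighter probe A_51_P291347 was saturated on 5 of 6 WT and 6 of 6 HDAC4&5 arrays, where its processed signal stood between 55332 and 62828 whatever the group. Its difference of 0.27 ± 0.24 therefore gives no measure of a change in Odc1.

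Of the antizymes, only Oaz2 could be read in the cells. Both Oaz1 probes were at the ceiling of the scanner, with 9 of 12 arrays saturated on A_51_P104128 and 11 of 12 on A_52_P461292, so a change of Oaz1 could not be measured in these cells. Oaz2 had the largest rise among the members that could be read. On the intron-crossing probe A_52_P90289, the WT arrays read -0.27, -0.32, -0.23, -0.17, -0.53 and -0.52, and the HDAC4&5 arrays read 1.71, 1.73, 1.89, 1.80, 1.49 and 1.43. The difference was 2.02 ± 0.09, or 4.04-fold, and stood at 2.02, 2.04 and 1.99 within the slides. All 4 Oaz2 probes lay higher in every HDAC4&5 array used. A_52_P157408 differed by 1.55 ± 0.07 and A_52_P654130, which overlaps it, by 1.54 ± 0.09. The brightest probe, A_51_P311945, differed by 2.18 ± 0.07, but 4 of its 6 HDAC4&5 spots and 1 of its 6 WT spots were marked as outliers and left out. With the marked spots kept, it again differed by 2.18.

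Amd1, which supplies the aminopropyl groups, changed little. The brighter Amd1 probe, A_51_P381763, read 3.77, 3.51, 3.57, 3.64, 3.73 and 3.80 in WT and 3.71, 3.74, 3.98, 3.80, 3.88 and 4.07 in HDAC4&5 cells. The groups overlapped, and the difference was 0.19 ± 0.08. It passed the threshold of the fit, but fell to 0.01 in the deposited matrix and to 0.08 within slide 1. The dim probe A_52_P484807 differed by 0.10 ± 0.12. The Amd2 probe was lower in HDAC4&5 cells, with a mean of 3.90 in WT and 3.67 in HDAC4&5 cells and a difference of -0.24 ± 0.06.

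The synthases moved in opposite directions. Srm, which makes spermidine, read 4.07, 4.00, 3.89, 3.87, 3.93 and 3.85 in WT and 4.45, 4.54, 4.27, 4.19, 4.38 and 4.28 in HDAC4&5 cells. The lowest HDAC4&5 array stood above the highest WT array, and the difference was 0.42 ± 0.07, or 1.34-fold, with 0.46, 0.35 and 0.45 within the slides. Its size was 0.29 with normexp background correction and 0.24 in the deposited matrix, and it was called in neither. Sms, which makes spermine, was lower in HDAC4&5 cells on both probes that passed the filter in each group. On A_52_P573377 the WT arrays read -1.95, -2.19, -1.82, -1.75, -1.92 and -1.97 and the HDAC4&5 arrays -4.59, -4.29, -4.04, -4.37, -4.23 and -4.03, a difference of -2.33 ± 0.10. The brightest Sms probe, A_51_P457259, had only 2 WT spots that were not marked as outliers, at 3.70 and 3.51, against 2.31 to 2.62 on 5 HDAC4&5 arrays. Its difference was -1.17 ± 0.11, or 2.25-fold, and -1.21 with the marked spots kept. The probe A_52_P545192, which only the muscle files name Sms, was well above background on 5 of 6 HDAC4&5 arrays and passed the filter through WT alone. A filter passed through 1 group favours a difference, so its value of -1.99 ± 0.09 is a description only. The difference thus ranged over the probes from -1.17 to -2.33 on the log2 scale, and that of the dimmer probes moved with background correction. With normexp, A_52_P573377 differed by -0.97 and A_52_P545192 by -0.42, whereas the brightest probe again differed by -1.17.

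The breakdown enzymes also moved apart. Sat1, whose product acetylates spermidine and spermine, read 2.81, 2.67, 2.36, 2.57, 2.88 and 2.92 in WT cells on A_52_P640282. In HDAC4&5 cells it read 1.73, 1.70, 1.68, 1.64, 1.77 and 1.95. No HDAC4&5 array reached the lowest WT array, and the difference was -0.95 ± 0.09, or 1.94-fold lower. The second probe, A_51_P348494, read 2.06 to 2.42 in WT and 0.95 to 1.37 in HDAC4&5 cells and differed by -1.03 ± 0.08. Within the slides the Sat1 differences were -1.02, -0.80 and -1.04 on the first probe and -0.92, -1.06 and -1.12 on the second.

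Smox, which oxidises spermine, was higher in all HDAC4&5 arrays. On A_51_P372826 the WT arrays read 0.69, 0.58, 0.60, 0.77, 0.61 and 0.67 and the HDAC4&5 arrays 1.65, 1.64, 1.80, 1.71, 1.68 and 1.79. The spread within each group (SD 0.07 in both) was small beside the difference of 1.06 ± 0.05, or 2.09-fold. Within the slides it was 1.01, 1.07 and 1.1. The dim probe A_52_P430194 was well above background on 4 of 6 WT arrays and on all 6 HDAC4&5 arrays, through which alone it passed the filter, and differed by 1.39 ± 0.18.

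**Figure D2:**
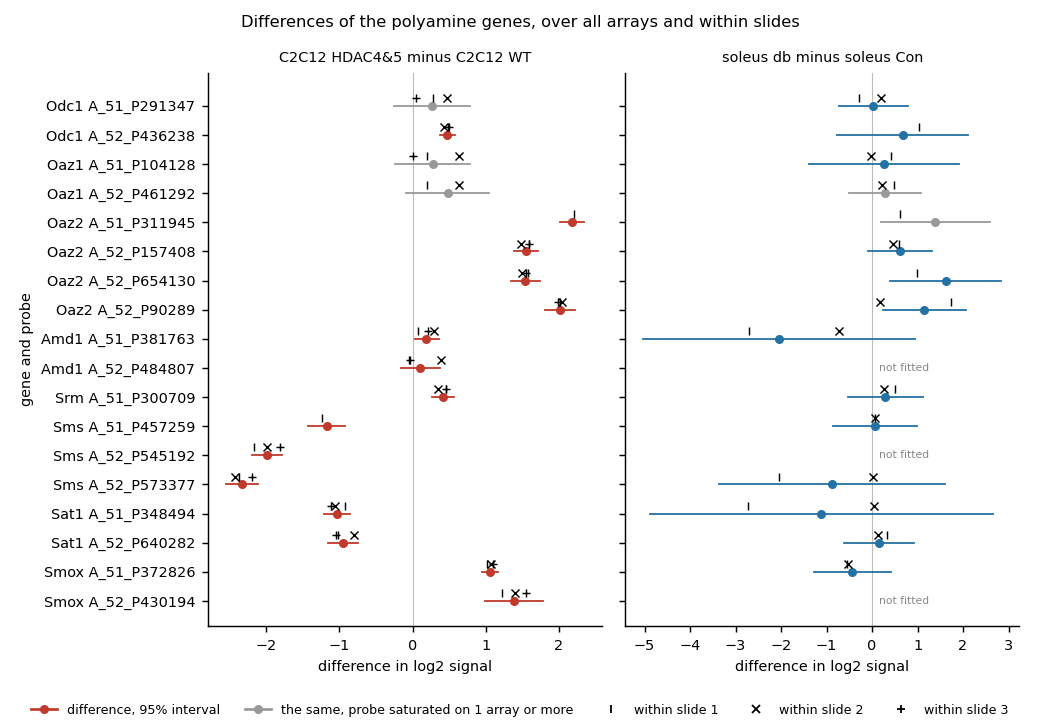
Difference in log2 signal for each probe of the polyamine genes, HDAC4&5 minus WT in C2C12 cells (left) and db minus Con in soleus (right), with the 95% interval of the limma fit; small black signs are the difference within each slide, and grey marks a probe that was saturated on 1 array or more. In cells the slides gave like values for Oaz2, Srm, Sms, Sat1 and Smox, though the brightest Oaz2 and Sms probes had a value for slide 1 alone. In soleus the intervals were wider, with those of 3 Oaz2 probes above 0.

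In soleus muscle of db/db mice, Oaz2 read higher than in controls on most arrays, and the other members overlapped between the groups. Of the 10 muscle markers, 8 were well above background on every Con array and 9 on every db array. Summed levels of 4 endothelial markers were 12.9 to 22.4 in Con and 5.92 to 12.6 in db. Those of 6 fibroblast markers were 366 to 501 and 156 to 440. Of the fibroblast markers, Col3a1 had a mean log2 level of 7.34 in Con and 6.45 in db. Col1a1 and Col1a2 were also lower in db, and Dcn changed little. Pdgfra (0.04 and 0.31) and Lum (3.24 and 3.46) went the other way. Outlier-marked spots were dropped, so a sum may lack a marker on some arrays. The part of these markers in the differences was not tested. A difference in bulk muscle cannot tell fewer cells of a type from less RNA per cell. limma called 0 of the 8 member genes, beside 0.00541% of all probes (1 of 18473 probes, of the urinary protein gene Mup1). At an unadjusted p under 0.05, limma passed 1 of the 8 genes (Oaz2), beside 6.43% of all probes, and the methods' t-test passed 0 by each gene's brightest probe, though it passed 3 other probes, all of Oaz2. Of the 18 probes, 15 passed the filter on dim probes, 1 of Sms and 1 of Sat1 only through Con. Of those 15, 3 lay higher with no overlap and 0 lower, beside 5.73% and 4.47% of all probes. The 3 were all of Oaz2, and the rule used this contrast too. All of them except A_52_P90289 lacked Con replicate 3, whose spot was marked as an outlier.

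The Oaz2 probe without a marked spot that lay apart was A_52_P90289. It read 1.24, 0.52 and 2.02 in the 3 Con arrays and 2.61, 2.63, 2.16 and 2.22 in the 4 db arrays. The difference was 1.15 ± 0.40 (95% interval 0.24 to 2.06), but it stood at 1.74 within slide 1 and at 0.18 within slide 2, where Con replicate 3 read 2.02. A_52_P157408 read 3.92, 3.73 and 4.31 in Con and 4.66, 4.18, 4.76 and 4.80 in db, with db replicate 2 below Con replicate 3. It differed by 0.62 ± 0.31, and by 0.60 and 0.47 within the slides. For the other 2 probes Con replicate 3 was marked as an outlier, so that the Con values came from slide 1 alone, while db replicates 3 and 4 came from slide 2. Their differences were 1.62 ± 0.52 for A_52_P654130 and 1.39 ± 0.49 for A_51_P311945, which was saturated on 1 of its 3 db arrays used. With the marked spots kept these fell to 1.04 and 0.67, and the groups then overlapped on both probes. Within slide 1 the differences were 0.99 and 0.62.

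**Figure D3:**
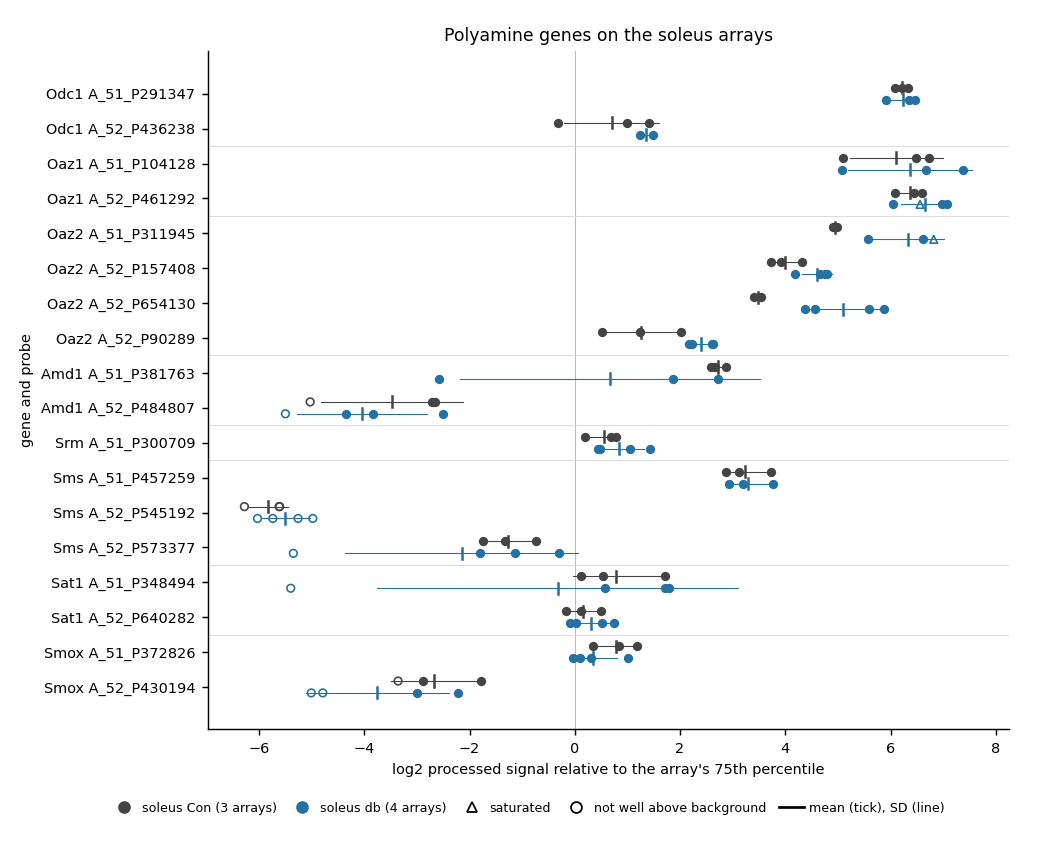
Every array's value for the 18 probes of the polyamine genes in soleus muscle, as log2 processed signal relative to the array's 75th percentile; grey marks Con (3 arrays) and blue marks db (4 arrays), with the signs of the plot of the cell arrays. The db arrays lie above the Con arrays on 3 Oaz2 probes, but on all of these except A_52_P90289 Con replicate 3 is left out as an outlier. On an Amd1, a Sms and a Sat1 probe, 1 db array lies far below the others.

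Odc1 was unsaturated in soleus on its bright probe, which read 6.08, 6.33 and 6.22 in Con and 5.91, 6.35 and 6.46 in the 3 db arrays used. The difference was 0.03 ± 0.32, with an interval of -0.72 to 0.78. The other Odc1 probe read 1.00, -0.32 and 1.41 in Con and 1.49 and 1.23 in the 2 db arrays that were not marked as outliers. Oaz1 differed by 0.28 ± 0.35 on A_52_P461292, with 1 db array saturated, and by 0.26 ± 0.70 on A_51_P104128. Neither gene could be placed as higher or lower at this spread.

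The array of db replicate 1 stood apart for some members. It read -2.59 on the bright Amd1 probe, where the Con arrays read 2.67, 2.88 and 2.59 and the other db arrays 2.72 and 1.86. It was not well above background on A_51_P348494 of Sat1 (-5.40) or on A_52_P573377 of Sms (-5.35), although the other Sat1 probe read 0.52 and the other Sms probe 3.20 on the same array. With this array the differences were -2.05 ± 1.27 for Amd1, -1.12 ± 1.64 for Sat1 and -0.88 ± 1.08 for Sms. Without it they were -0.42, 0.57 and 0.18.

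On the probes that all arrays measured well, Sat1 (A_52_P640282) read 0.11, 0.49 and -0.16 in Con and 0.52, 0.75, 0.03 and -0.09 in db. The groups overlapped, with a difference of 0.15 ± 0.34. Srm read 0.68, 0.78 and 0.20 in Con and 1.04, 1.42, 0.44 and 0.48 in db, a difference of 0.29 ± 0.35. Smox read 0.83, 0.34 and 1.18 in Con and 0.10, -0.03, 0.30 and 1.01 in db, a difference of -0.44 ± 0.37, and it was -0.55 and -0.53 within the slides. The brightest Sms probe, for which db replicate 3 was left out as an outlier, differed by 0.06 ± 0.39. The intervals for these genes reached from -0.62 to 0.93 for Sat1 and from -1.28 to 0.41 for Smox.

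Across the 4 groups, the order of levels is a description, since tissue, culture and slide differ together between cells and muscle. Sat1 on A_52_P640282 was highest in WT cells (mean 2.70), then HDAC4&5 cells (1.75), and lowest in db (0.30) and Con soleus (0.15), the last 2 overlapping. Srm on its probe was highest in HDAC4&5 cells (4.35), then WT cells (3.93), and lower in db (0.84) and Con soleus (0.55), which overlapped. Oaz2 on A_52_P90289 was lowest in WT cells (-0.34), and HDAC4&5 cells (1.67) overlapped Con soleus (1.26), with db (2.41) above both. Smox on A_51_P372826 was highest in HDAC4&5 cells (1.71), above Con soleus (0.78), WT cells (0.65) and db (0.35), whose neighbours in this order overlapped.

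RefSeq promoter sequence (GRCm38.p6) was held for 7 of the 8 genes, with 8 start sites, as the table has 2 for Sms. Over the 250 bases before each start, the MYC-type E-box CACGTG, which reads the same on both strands, was in 1 of the 8 starts and in 6.02% of 32851 promoters. The GC box GGGCGG, searched on both strands, was in 6 of the 8 and in 32.7% of all. Oaz2 and Sms are shown because they had the largest rise and the largest fall, with both motifs in capitals and the transcript's strand read 5′ to 3′. Of the 2 Sms starts, the one with the E-box is shown, which had 1 E-box and 0 GC boxes. The other had 0 E-boxes and 4 GC boxes. A match is a string of letters and not evidence of binding.
Oaz2, chr9:65676298-65676547, plus strand: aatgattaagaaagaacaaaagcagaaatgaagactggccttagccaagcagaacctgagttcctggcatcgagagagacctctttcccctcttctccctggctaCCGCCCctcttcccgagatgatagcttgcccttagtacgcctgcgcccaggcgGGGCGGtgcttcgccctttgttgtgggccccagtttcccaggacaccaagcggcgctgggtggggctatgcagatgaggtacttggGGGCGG
Sms, chrX:157492288-157492537, minus strand: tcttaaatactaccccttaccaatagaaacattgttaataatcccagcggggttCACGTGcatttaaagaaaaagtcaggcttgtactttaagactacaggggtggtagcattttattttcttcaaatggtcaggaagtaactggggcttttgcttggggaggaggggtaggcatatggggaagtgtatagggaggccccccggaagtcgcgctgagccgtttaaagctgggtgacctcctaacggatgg

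The genes around the pathway were taken from 7 lists of 78 genes, of which 55 could be tested in C2C12 cells and 50 in soleus. In cells 22 rose, 22 fell and 11 did not pass the test (limma, Benjamini-Hochberg over all probes), which is read against the 36.5% and 31.9% of all probes given above. Of the genes named below, Slc7a3, Slc25a2 and Aloxe3 passed the filter through HDAC4&5 alone, and Slc12a8, Mycl and Alox5 through WT alone. Each was high in the group that let it pass, so the p-values of these genes are a description and support nothing. In soleus 0 of the 50 passed, 1 of them at an unadjusted p under 0.05 in limma and 4 in the methods' t-test. That 1 gene, chosen after its values were seen, was Slc22a2, an organic cation transporter, at -0.72 in Con and 1.98 in db (adjusted p = 0.292 in limma).

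Of the arginine and ornithine supply, 6 of 13 tested genes rose and 7 fell, with a median difference of -0.13 beside 0.05 over all probes. Ass1, which joins citrulline and aspartate on the way to arginine, fell by 5.14 on the log2 scale (adjusted p = 1.18e-14 in limma). Gatm, which uses arginine to start creatine synthesis, fell by 2.47 (adjusted p = 7.48e-11 in limma). The arginine transporter Slc7a3, well above background on 5 of 6 WT arrays, rose by 2.82 (adjusted p = 6.3e-11 in limma). With normexp its difference was 1.64. Slc25a2, a mitochondrial ornithine carrier, was not well above background on any WT array and was at least 3.69-fold higher in HDAC4&5 cells (adjusted p = 1.72e-08 in limma). That bound holds for the processed signal, and with normexp the log2 difference was 1.21, which is below it.

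Of the methionine cycle and salvage genes, which make and recycle S-adenosylmethionine, 4 of 13 rose, 4 fell and 5 did not pass, with a median of -0.05. Methionine synthase (Mtr) rose by 0.76 ± 0.11 and the salvage enzyme gene Adi1 by 0.62 ± 0.07 (adjusted p = 2.84e-05 and 3.38e-06 in limma). Ahcyl2 fell by 0.46 ± 0.07 and Mat2b, a regulatory subunit of methionine adenosyltransferase, by 0.44 ± 0.11 (adjusted p = 9.28e-05 and 0.00233 in limma). Ahcyl2 was not called with normexp.

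Hypusination uses spermidine to modify the translation factor eIF5A, and 2 of its 4 genes rose, 1 fell and 1 did not pass, with a median of 0.22. Eif5a rose by 0.49 ± 0.13 (adjusted p = 0.00574 in limma), with 1 spot saturated. Deoxyhypusine synthase (Dhps) rose by 0.30 ± 0.05 (adjusted p = 0.000307 in limma). Eif5a2 fell by 0.51 ± 0.08 (adjusted p = 5.78e-05 in limma). With normexp none of these 3 genes was called, and in the deposited matrix Eif5a and Dhps were not.

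Among 9 tested genes of polyamine oxidation and transport, 5 rose and 4 fell, with a median of 0.34. Cav1, which forms caveolae, rose by 2.13 ± 0.07 and the amine oxidase gene Aoc2 by 0.93 ± 0.12 (adjusted p = 3.88e-10 and 2.22e-05 in limma). Slc18b1, a vesicular polyamine transporter, fell by 2.50 ± 0.10 and Slc12a8 by 1.19 ± 0.05 (adjusted p = 1.1e-10 and 6.97e-11 in limma). With normexp the difference of Slc12a8 was -0.06 and was not called. Of the antizyme partners, Azin1, which binds antizyme and frees Odc1, differed by 0.06 ± 0.06 and Azin2 by 0.09 ± 0.10, and neither passed.

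Of 10 tested genes of the MYC network, 4 rose, 4 fell and 2 did not pass, with a median of -0.09. Myc, which is known to drive Odc1, rose by 0.93 ± 0.08 and Mxd3 by 0.41 ± 0.09 (adjusted p = 2.2e-07 and 0.000948 in limma). Mxd3 was not called in the deposited matrix. Mycl was not well above background on any HDAC4&5 array and was at least 34-fold lower there in processed signal (adjusted p = 4.5e-14 in limma). With normexp its log2 difference was -2.60, which is below that bound in size. Mxd4, a MAX partner that opposes MYC, fell by 1.12 ± 0.08 (adjusted p = 6.51e-08 in limma).

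Of 4 tested genes of the arachidonate lipoxygenase list, 1 rose, 2 fell and 1 did not pass, with a median of -1.41. The list is of interest beside Sat1 because SAT1 has been tied to lipid peroxidation in cell death. Alox15, which is also on the list, could not be tested in cells or in soleus. Alox5 averaged 6.07 in WT cells and -5.04 in HDAC4&5 cells, where 3 of 6 arrays were well above background (adjusted p = 1.73e-08 in limma), and 2 of the spots behind these means were saturated. Its activating protein gene Alox5ap fell by 3.10 ± 0.08 (adjusted p = 8.41e-13 in limma). Aloxe3 was not well above background on any WT array and was at least 3.12-fold higher in processed signal in HDAC4&5 cells (adjusted p = 2.16e-05 in limma), and with normexp its log2 difference was 1.1, below that bound.

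**Figure D4:**
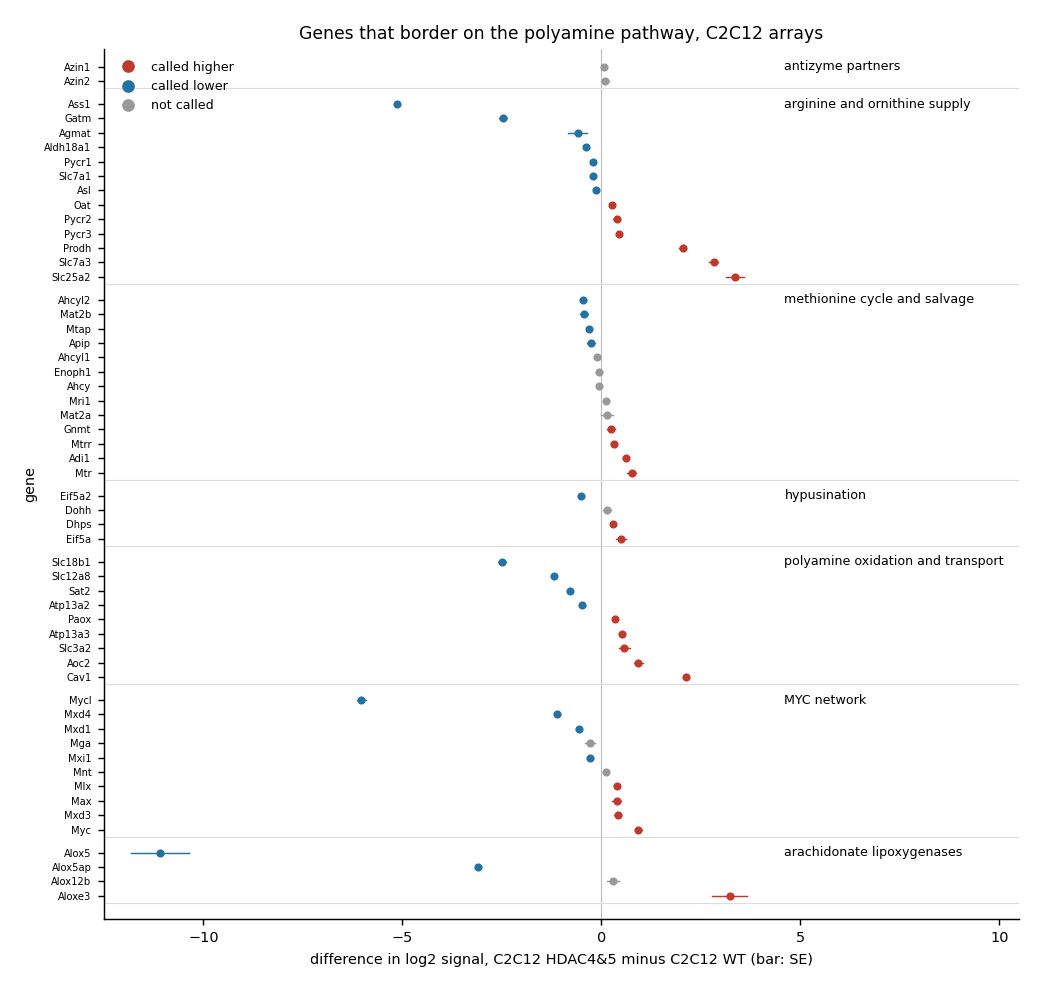
Difference in log2 signal between HDAC4&5 and WT C2C12 cells for the 55 tested genes around the polyamine pathway, grouped by list and ordered by size, with bars of 1 SE; red was called higher, blue called lower and grey not called at an adjusted p of 0.05 in limma. Both directions occur in 6 of the 7 lists, and neither antizyme partner was called.

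The genes whose profiles were most like those of Odc1 and Sat1 were looked up among probes well above background on every array. Over the 12 cell arrays, the unsaturated Odc1 probe had its highest Pearson r with Prmt5 (0.989), Pcbp3 and Hspd1 (0.985 each), and 2123 of 11724 genes had an r over 0.9. The saturated Odc1 probe had an r of 0.999 with Cox8a, Rpl12 and Rpl8. For Sat1 the highest named genes were Abhd11 (0.995) and Gchfr (0.993), with 1870 genes over 0.9. The groups lie apart on the unsaturated Odc1 probe and on the Sat1 probe, so such an r mostly reflects the difference between WT and HDAC4&5 cells. On the saturated Odc1 probe the groups overlapped and 11 of 12 spots were saturated, so its r is no measure of likeness to Odc1. Over the 7 muscle arrays Sat1 was most like Siah1a (0.997), C2cd2l (0.991) and Rpp38 (0.989), and over the 6 usable arrays the bright Odc1 probe was most like Nf1, Gdpd5 (0.986 each) and Dennd1a (0.983). These are descriptions over few arrays that share slides.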

How the data were processed

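Gene expression was measured on Agilent whole mouse genome arrays, and the authors deposited 1 scanner file per sample from Agilent Feature Extraction 9.5.1.1, whose processed signal is an intensity on a linear scale, background-subtracted within each array. A matrix of processed values deposited by the authors as a ratio to a constant per array was used by group as an alternative only, since the columns of db replicates 1 and 2 matched the scanner files of db replicates 3 and 4. The columns of Con replicates 1 and 2 and db replicates 3 and 4 matched no scanner file closely. For soleus the matrix is therefore not only another scaling of the same values. For the cells each column matched its own scanner file closely, so there the matrix is mainly another scaling of the same signals and not a separate measurement. Coordinates of probes are those of the files, on mm9. Members and lists were chosen with earlier results of these data known.

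Controls and outlier-marked spots were dropped, whereas saturated ones stayed. Each processed intensity was put on the log2 scale and set against the 75th percentile of its array. A probe was fitted where all arrays of 1 group or both had it well above background. C2C12 and soleus arrays were fitted apart with limma 3.58.1 in R 4.3.3, over all probes, with Benjamini-Hochberg adjustment at 0.05. A gene is given by its brightest probe, and a lower bound uses, per array, the dimmest signal that counts as well above background. The fit was tested on simulated data. In each list and comparison the 2 largest called rises and falls are named, and for Odc1 and Sat1 the 3 genes with the highest r.

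Deviations from the group means correlated between arrays of 1 replicate number, with r of 0.367 to 0.704 for 6 C2C12 pairs and 0.446 to 0.731 for 3 soleus pairs. Arrays of different numbers on a shared slide gave 0.356 to 0.717 and 0.359 to 0.803, so the numbers follow the slide. Replicates of a group had r of 0.988 to 0.999 in cells and 0.855 to 0.983 in soleus. The symbols of 27198 probes were matched through RefSeq accessions. The number of arrays limits the precision. The alternatives were other scalings, filters, blocks, tests, slides and arrays left out, marked spots kept and unsaturated probes, the last 2 chosen after seeing the data. Protein sequences were not used here.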

Additional observations from a re-analysis of the deposited data

Results flagged for a closer look

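Over the 46 sets of 4 to 10 values that the member probes gave within a group, 1 held a value far from the rest, where chance would give about 1 in 20, or 2.3. This was the second Sat1 probe, A_51_P348494, in the array of db replicate 1, which read -5.40 and was not well above background, while the nearest of the other 3 db arrays read 0.57. The other Sat1 probe read 0.52 on that array.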

How the results depend on the processing

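In C2C12 cells the 2 members called lower, Sms and Sat1, were called under every alternative run, and so were Oaz2 and Smox among those called higher. The count of members called higher was 4, and 2 with normexp background correction, 2 in the deposited matrix and 2 at a fold of at least 1.5, in each of which Srm and Amd1 were lost. Amd1 was also lost with quantile normalization, without a filter on dim probes, and without slide 2 or slide 3. With the brightest probe that was neither saturated nor marked, Odc1 was called higher too, giving 5. That Odc1 probe was not called in the deposited matrix or at a fold of at least 1.5. Of the neighbour genes 44 were called, 29 with normexp and 19 at a fold of at least 1.5, and of all probes 14651, and 8017 at that fold. Relative to a median over all probes of 0.05, the median was 0.16 with normexp and -0.11 in the deposited matrix, and in soleus it moved from 0.02 to 0.26 in the matrix. With the replicate number as a block 47 neighbour genes and 16290 probes were called in cells (Agmat lost, and Ahcyl1, Mga, Mnt and Mri1 gained), 14579 of these probes being called without it, with the same 4 members higher and 2 lower, and in soleus the same 1 probe. It changed no other call of the members or neighbour genes. With slide as a block 47 neighbour genes and 16446 probes were called in cells. In soleus the members called by their brightest probe stayed at 0 under all 20 alternatives, and the unadjusted t-test passed 3 other member probes. The 1 probe called became 2 with quantile normalization, 0 with normexp, 0 in the matrix, 0 with the stricter filter, 32 with slide as a block, and 1401 in the methods' t-test unadjusted or 3 after Benjamini-Hochberg, and 0 to 1 with 1 array left out (0 without Con replicate 1 or 2 or db replicate 2, 3 or 4). The neighbour genes called were 4 in the unadjusted t-test. The cause of these moves was not tested. Among the member differences, 217 of 241 recomputed values in cells and 230 of 244 in soleus moved by less than the spread between replicates, and 0 called differences changed sign, while 1 called neighbour gene did with normexp (Pycr1, from -0.21 to 0.10). Saturation limits Oaz1 and the bright Odc1 probe in cells, and 7 arrays on 2 slides limit soleus.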
